A study of Anopheles merus and Anopheles coluzzii with 36 samples.

Results

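The genes described here are 37 of the 10905 genes in the deposited expression table, all with identifiers inside 4 runs of Anopheles gambiae identifiers that mark clusters of CPR cuticular protein genes. Cluster 1 runs from AGAP005995 to AGAP006012 and has a row for 16 of its 18 identifier numbers. Cluster 2, AGAP006829 to AGAP006868, has 5 of 40, cluster 3, AGAP009868 to AGAP009880, has 10 of 13, and cluster 4, AGAP010099 to AGAP010128, has 6 of 30. Identifier numbers without a row were not analysed here. Members were picked by identifier range alone, among the rows that a filter had left in the table. The ranges were chosen with earlier results of these data known. The deposited table gives no gene names, and none of its identifiers matched the reference table at hand, which lists 16199 An. merus genes. Membership of the CPR family therefore rests on the identifier ranges, no role can be given to a single member, and no member's sequence could be printed.

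CPR proteins are structural proteins of the insect cuticle that carry the Rebers and Riddiford consensus, a stretch that binds chitin. A larva lays down cuticle protein in bursts around each moult, and the mixture of proteins is known to differ between soft and hard cuticle. In anopheline mosquitoes many CPR genes lie side by side in tandem clusters and include nearly identical copies. A read from one copy can then be assigned to another, which was not tested, so the value of any single member is uncertain to that extent.

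The study exposed larvae of An. merus, which tolerates a wide range of salinity, and An. coluzzii, which does not, to 6 salinities. Every group was kept in fresh water up to an age of 18 h after hatching, followed by 6 h of exposure at 0, 10, 20, 30, 40 or 50% seawater, where the 0% groups serve as controls. Poly(A) RNA of pools of 35 to 50 whole larvae gave 3 libraries per species and salinity, or 36 libraries. Separate rearings behind the pools are not stated, so the p-values measure the spread between these pools. In RNA of whole bodies, fewer cells of a type and less RNA per cell cannot be told apart. Differences between the species in level cannot be told apart from differences in how well their reads aligned to 1 set of gene models, since the sources used here do not give the alignment target.

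Levels are in CPM, read counts relative to the reads of the library, scaled by the authors with TMM, a method that holds the bulk of genes constant. CPM is not per unit of gene length, so levels are compared for a gene between libraries and not between genes. Changes are log2 ratios of CPM + 0.5, which understates the change of low genes, and a member is called where the limma p, adjusted by Benjamini-Hochberg over 10905 genes, is under 0.05. The libraries held 9174563 to 24835904 reads, and a count of 0 allows up to 0.114 to 0.348 CPM. Of the 37 members, 4 had a mean of at least 100 CPM over all 36 libraries, 12 lay between 5 and 100 CPM, 15 between 1 and 5 CPM and 6 below 1 CPM. Cluster 4 had no member with a mean of 5 CPM. Every gene of the table reached 1 CPM before TMM in at least 3 libraries, so a member could pass through one condition alone. In 29 members 1 CPM was reached in both species, in 4 members (AGAP006002, AGAP006003, AGAP010110 and AGAP010125) in An. merus only, and in 4 (AGAP006012, AGAP009874, AGAP010111 and AGAP010122) in An. coluzzii only.

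One library stood apart before any comparison. In An. coluzzii at 0%, libraries A, B and D summed to 5104, 3686 and 1878 CPM over the 37 members, and D was the lowest of the 3 in 24 members. The level of AGAP005996 was 2278 and 1721 CPM in A and B but 520.3 CPM in D. Other members ran the opposite way: AGAP009868 was 0 and 0.424 CPM in A and B and 26.1 CPM in D, and AGAP006012 was 0.395 and 0.0471 CPM against 13.5 CPM. The median SD of the members on the log2 scale was 0.45 in this group, against 0.17 for all genes. In An. merus at 0% it was 0.29 against 0.23. The main counts and sums that rest on these 0% libraries are given below with and without library D, and some also without library A. Values given below without such a pair, medians among them, include library D.

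In An. merus more of the clustered genes were lower at each higher salinity, up to 27 of 37 at 50%, and in An. coluzzii up to 23 at 40%, of which part rose again at 50%. Summed over all 37 members, the level at 10, 20, 30, 40 and 50% was 84.8, 72.0, 64.7, 45.1 and 28.6% of that at 0%, with 4558 ± 703 CPM (SD, n = 3) at 0% and 1304 ± 171 CPM at 50%. In An. coluzzii the sum at the same salinities was 91.1, 61.5, 41.0, 37.3 and 58.3% of that at 0%, so its lowest point was at 40% and it was higher again at 50%. Without library D the An. coluzzii series was 73.7, 49.7, 33.1, 30.2 and 47.2%. The sums are descriptions without a test, and AGAP005996 alone made up 37.7% of them on average.

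**Figure D1:**
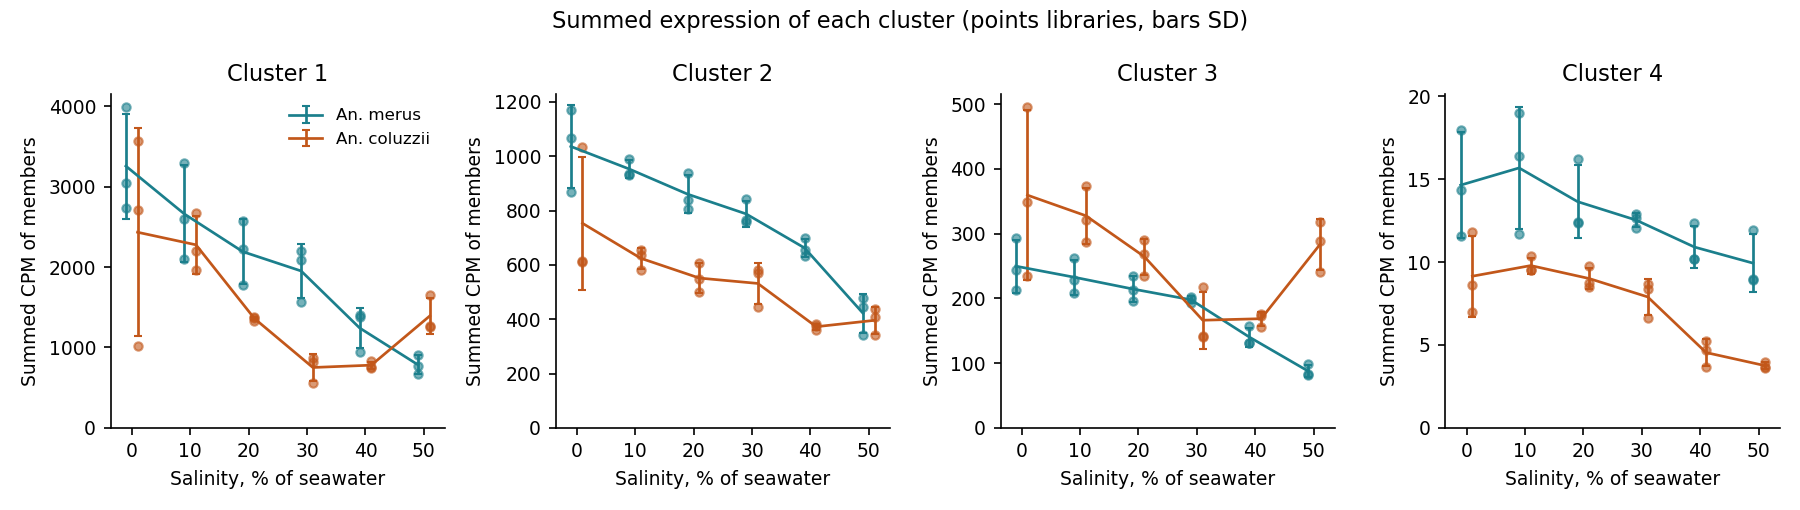
Summed CPM of the members of each cluster (vertical axis, from 0) against salinity in % of seawater. Points are single libraries of An. merus and An. coluzzii, lines join group means and bars are SD (n = 3). The An. merus sums are lowest at 50% in all 4 panels, while An. coluzzii clusters 1 and 3 are similarly low at 30 and 40% and higher at 50%.

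Counts of called members followed the same course in An. merus. At 10% limma called 0 members, against 0.798% of all genes (0.22% higher, 0.578% lower), with 3 members at an unadjusted p under 0.05 and 0 called by edgeR or DESeq2. At 20% 3 members were lower and 0 higher, against 11.8% of all genes called (7.05% lower, 4.71% higher). At 30% 5 were lower and 2 higher, against 19.4% (10.7% and 8.69%), and at 40% 15 were lower and 1 higher, against 39.3% (21.5% and 17.8%). At 50% 27 members were lower, 2 were higher and 8 were not called, while 37.7% of all genes were lower, 31.9% were higher and 69.6% were called in all. The share of members called at 50% was thus close to the background in total, and the split by direction was not. The median change of the 37 members at 50% was −1.21, and that of all genes was −0.06. All 3 libraries at 50% lay below all 3 at 0% in 26 members (70.3%) and above them in 3 (8.11%), against 36.9% and 30.9% of all genes.

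The genes next to the clusters had a median of the other sign in An. merus. Within 20 identifier numbers of either end of a cluster the table held 128 other genes. At 50% in An. merus 51 of them were higher and 36 lower, with a median of 0.18. In An. coluzzii at 50% 46 were higher and 50 lower, with a median of 0.00. Identifier order was the only sign of position at hand.

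Clusters 1 and 3, with 16 and 10 of the 37 members, held most of the An. merus calls at 50%, a count that largely follows their size. In cluster 1 14 of 16 members were lower and 0 higher, with a median of −1.33. Cluster 3 had 8 of 10 lower and 0 higher, with a median of −1.36. Cluster 2 had 3 of 5 lower and 2 higher, with a median of −0.95, and cluster 4 had 2 of 6 lower and 0 higher, with a median of −0.03. The count and median of cluster 4 include AGAP010111, which had no read in An. merus. The sums at 50% were 24.1, 40.7, 35.2 and 67.9% of those at 0% in clusters 1, 2, 3 and 4. These sums follow their most abundant members: AGAP005996 held 56.9% of cluster 1 and AGAP006829 held 91.9% of cluster 2. Differences between clusters were not tested.

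**Figure D2:**
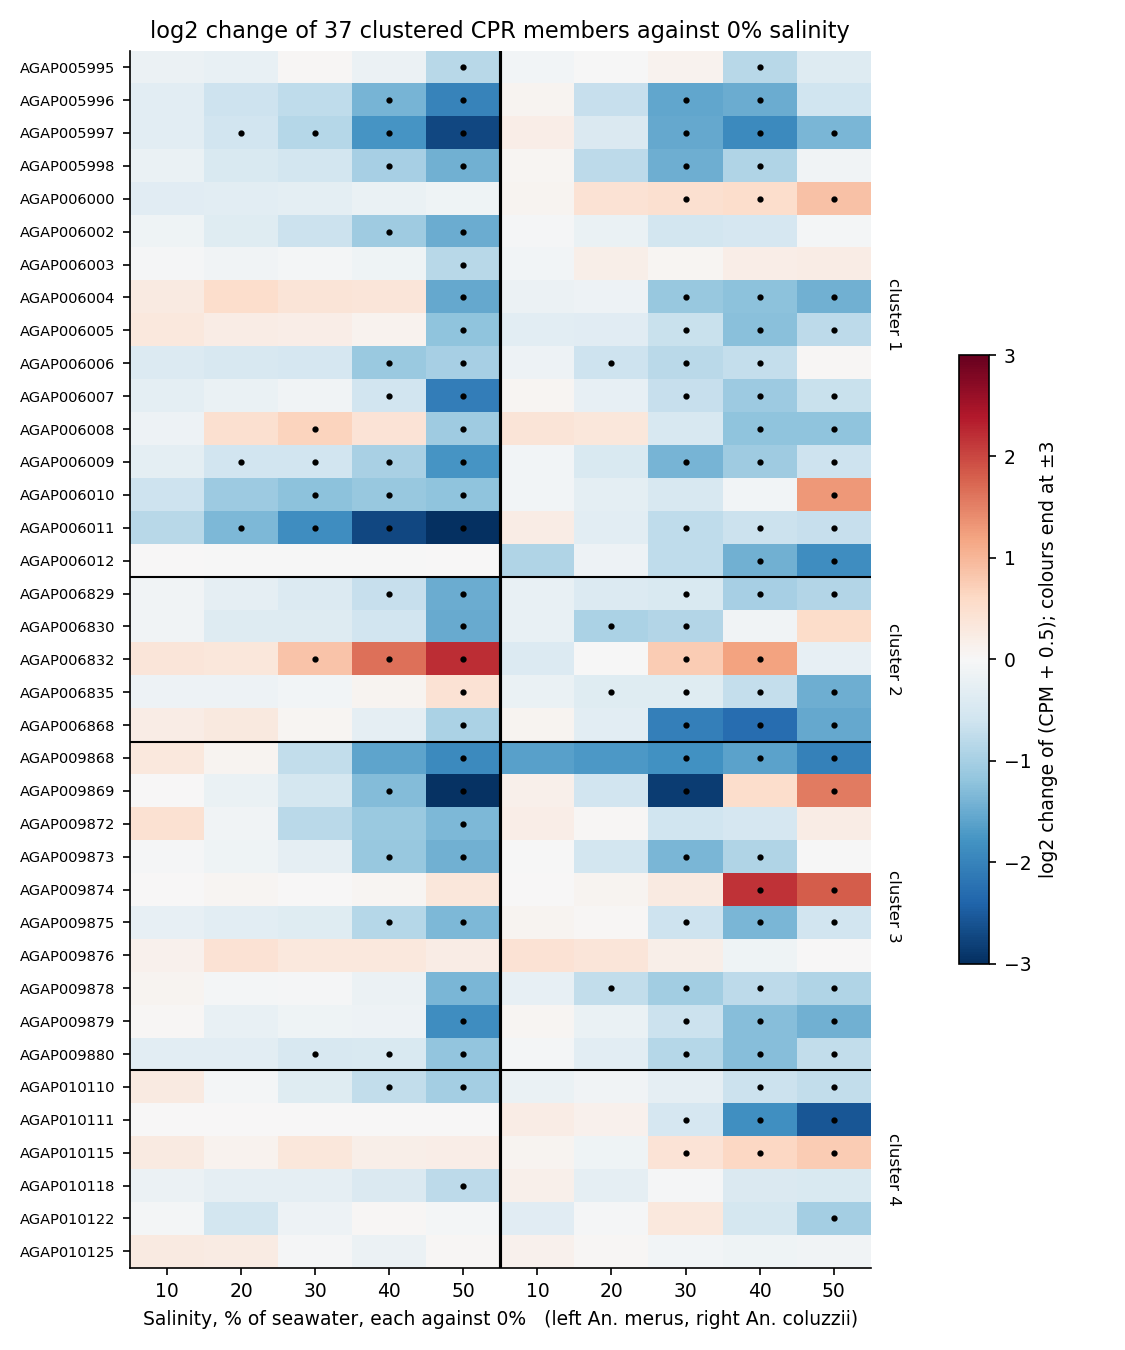
log2 change of (CPM + 0.5) at each salinity against 0% (colour, ending at ±3) for the 37 members in order of identifier, with An. merus on the left and An. coluzzii on the right. Dots mark a limma adjusted p under 0.05. Blue cells with dots fill the An. merus column at 50% (27 members lower), while in An. coluzzii they are already dense at 30% (21 lower).

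The 4 most abundant members all fell in An. merus. AGAP005996 was 2131, 1477 and 1738 CPM in libraries A, B and C at 0%, and 367, 424 and 530.4 CPM at 50%. Its log2 change was −2.01 (SE 0.34, limma adjusted p = 5.86e-06), and the groups did not overlap. AGAP005997 went from 1082, 724 and 788 CPM to 108, 140.0 and 136 CPM, a change of −2.74 (SE 0.17, limma adjusted p = 1.49e-13). The group means of AGAP005997 went down at every step of salinity, and it was called lower from 20% on. AGAP005998 was 638, 431 and 429 CPM at 0% and 165, 165 and 210.0 CPM at 50%, a change of −1.45 (limma adjusted p = 0.000131). AGAP006829, the main member of cluster 2, was 999, 1096 and 802 CPM at 0% and 365, 274 and 392 CPM at 50%, a change of −1.49 (limma adjusted p = 3.13e-09). In each of these 4 members all libraries at 50% were below all libraries at 0%.

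The largest fall in An. merus was that of AGAP006011 in cluster 1. Its libraries held 38.3, 29.2 and 22.9 CPM at 0%, 11.1, 8.47 and 15.4 CPM at 20%, 4.13, 3.14 and 4.95 CPM at 40%, and 1.71, 3.11 and 2.69 CPM at 50%. The libraries of these 4 groups did not overlap, and the change at 50% was −3.35 (SE 0.24, limma adjusted p = 1.9e-12). In An. coluzzii the same identifier was at 1.19, 0.801 and 0.256 CPM at 0%, or 24, 17 and 5 reads, and at 0.326, 0.254 and 0.145 CPM at 50%, or 5, 4 and 2 reads. It was called lower there at 30, 40 and 50%, although at each of these salinities its libraries overlapped those at 0%. These calls were lost without library A of 0% (limma adjusted p = 0.0976, 0.175 and 0.129) and with 2 in place of 0.5 added to the CPM.

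For AGAP006007 and AGAP006004 in cluster 1 the largest step in An. merus came between 40 and 50%. AGAP006007 was 19.3, 13.0 and 11.9 CPM at 0%, 11.0, 10.6 and 7.31 CPM at 40% and 3.24, 2.57 and 3.32 CPM at 50%. It was already lower at 40%, by 0.57 on the log2 scale (limma adjusted p = 0.0253), and its step from 40 to 50% was −1.50 (limma adjusted p = 1.09e-06). AGAP006004, with 7.31, 3.74 and 5.64 CPM at 0% and 6.65, 7.25 and 7.37 CPM at 40%, stood at 1.89, 1.22 and 1.5 CPM at 50%. The step of AGAP006004 was −1.91, the largest of all members. Over the 37 members, the step from 40 to 50% called 17 lower and 1 higher, against 44.8% of all genes called (25.4% lower, 19.4% higher). The step from 30 to 40% called 1 lower and 0 higher, against 1.81% (1.04% and 0.77%). From 20 to 30% limma called 0 members, against 0.00917% of all genes, with 1 member at an unadjusted p under 0.05 and 0 called by edgeR or DESeq2.

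**Figure D3:**
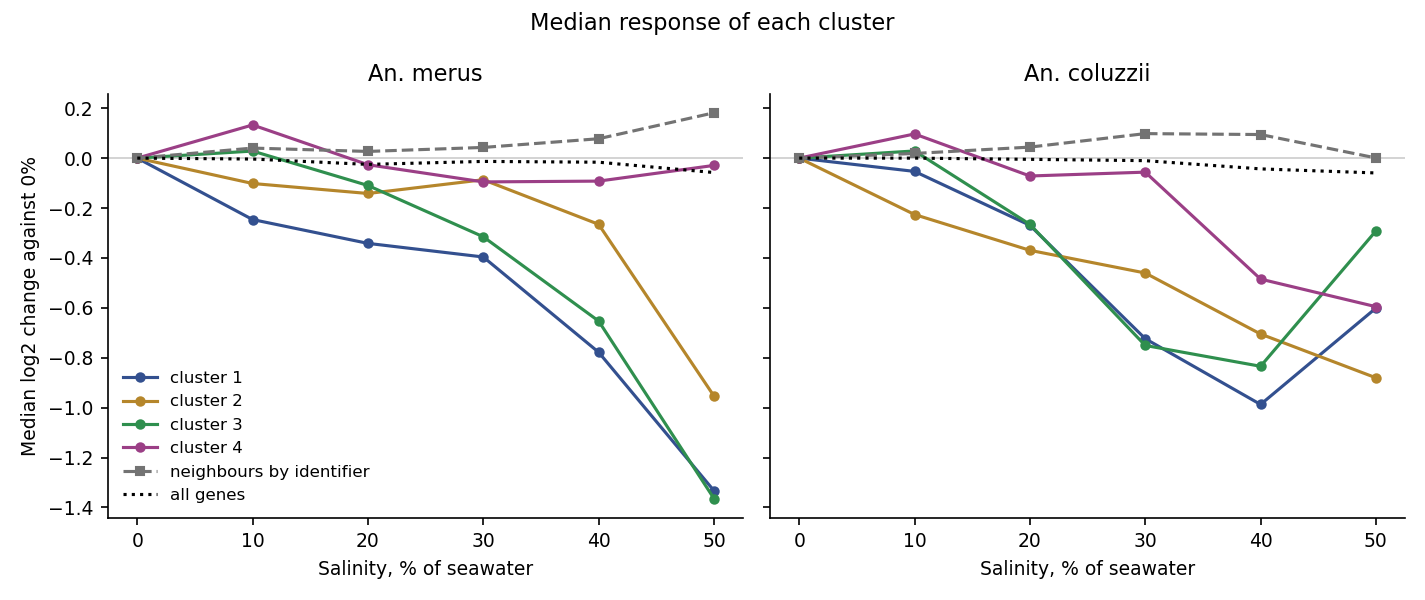
Median log2 change against 0% (vertical axis) at each salinity for the 4 clusters, for the 128 neighbours by identifier and for all 10905 genes, in An. merus (left) and An. coluzzii (right). In An. merus clusters 1 and 3 reach −1.33 and −1.36 at 50%, while the neighbours stand at 0.18. In An. coluzzii clusters 1 and 3 turn upward between 40 and 50%.

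In cluster 3, AGAP009869 fell most in An. merus, from 27.0, 13.4 and 19.4 CPM at 0% to 2.0, 1.62 and 2.53 CPM at 50%. That change was −2.96 (SE 0.24, limma adjusted p = 2.45e-11). AGAP009875, the most abundant member of this cluster, went from 120.0, 85.0 and 88.5 CPM to 33.6, 39.2 and 41.4 CPM, a change of −1.34. AGAP009873 went from 86.1, 85.8 and 45.9 CPM to 24.3, 23.2 and 28.8 CPM, a change of −1.44. AGAP009878 and AGAP009880 fell by 1.37 and 1.19 on the log2 scale. In all 5 members the 50% libraries lay below the 0% libraries.

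Only AGAP006832 and AGAP006835, both in cluster 2, were higher in An. merus at 50%. AGAP006835 was 44.9, 44.6 and 49.8 CPM at 0% and 63.8, 56.1 and 70.2 CPM at 50%, a change of 0.44 (SE 0.12, limma adjusted p = 0.00248). AGAP006832 was 0.812, 1.56 and 0.723 CPM at 0%, 3.86, 4.16 and 4.59 CPM at 40% and 8.01, 5.14 and 6.25 CPM at 50%, a change of 2.21 (SE 0.29, limma adjusted p = 1.56e-07). In both, every 50% library was above every 0% library, and AGAP006832 was called from 30% on. Their neighbour AGAP006830 moved the other way, from 17.1, 18.3 and 11.2 CPM to 4.77, 4.26 and 6.09 CPM, a change of −1.52.

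At 50% cluster 4 had the median nearest to 0 of the 4 clusters in An. merus. The value of that median is partly fixed, since AGAP010111, without a read there, enters it with a change of 0. No member of cluster 4 had a mean of 5 CPM over all 36 libraries, and the added 0.5 CPM shrinks the changes of such members. AGAP010118, its most abundant member, was 9.28, 5.67 and 5.98 CPM at 0% and 3.48, 3.65 and 4.19 CPM at 50%. That change was −0.78 (limma adjusted p = 0.00733), and it was not called without library A of An. merus at 0% or with quantile normalization. AGAP010110 fell by 1.02 on the log2 scale. AGAP010125, AGAP010115 and AGAP010122 were not called, with changes of 0.05, 0.20 and −0.06. AGAP010111 had 0 reads in all 18 An. merus libraries, although it had 1369 reads over the 18 of An. coluzzii.

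In An. coluzzii 21 of the 37 members were lower at 30%, 23 at 40% and 19 at 50%. At 10% limma called 0 of them, against 0.055% of all genes (0.0459% higher, 0.00917% lower), with 1 member at an unadjusted p under 0.05, 0 called by edgeR and 1 by DESeq2. At 20% 4 were lower and 0 higher, against 15.3% of all genes called (7.83% lower, 7.51% higher), and without library D of 0% 11 were lower and 2 higher. Without library A of 0%, 1 was lower at 20%, and without any one library at 20%, 2 were. At 30% 21 were lower and 3 higher, against 27% and 23.2% of all genes, or 50.2% in all. With library totals in place of TMM the split at 30% was 22 lower and 0 higher. At 40% 23 were lower and 4 higher, against 35% and 30.6% of all genes, or 65.6% in all. At 50% 19 were lower, 5 were higher and 13 were not called, against 36.3% and 31.7%, or 68% called in all. Without library D the counts at 30, 40 and 50% were 20, 21 and 19 lower and 3, 4 and 4 higher, and without library A they were 17, 20 and 18 lower and 0, 4 and 6 higher. The member medians at 30, 40 and 50% were −0.61, −0.78 and −0.59, against −0.01, −0.04 and −0.06 for all genes.

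By cluster, the An. coluzzii counts at 50% were 8 lower and 2 higher of 16 in cluster 1, and 3 lower and 0 higher of 5 in cluster 2. They were 5 lower and 2 higher of 10 in cluster 3, and 3 lower and 1 higher of 6 in cluster 4. Without library D they were 10 lower and 1 higher in cluster 1, 3 and 0 in cluster 2, 4 and 2 in cluster 3, and 2 and 1 in cluster 4. The sum of cluster 1 was similarly low at 30 and 40%, at 30.8 and 32.0% of its 0% level, or 23.9 and 24.8% without library D. At 50% it was 57.2%, or 44.3% without library D. Cluster 3 stood at 46.2% at 30% and at 78.6% at 50%, or at 39.4 and 67.0% without library D. Cluster 2 was at 49.4% at 40% and 52.6% at 50%, and cluster 4 was at 49.6 and 41.1%. Without library D they were at 45.2 and 48.0% in cluster 2 and at 58.1 and 48.1% in cluster 4.

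AGAP005996 traced the course of cluster 1 in An. coluzzii. Its libraries held 504, 513 and 306 CPM at 30%, 434, 436 and 484 CPM at 40%, and 759, 1066 and 744 CPM at 50%. The 30 and 40% libraries were all below the 520.3 CPM of library D at 0%, and all the 50% libraries were above those at 40%. Its change at 30% was −1.56 (limma adjusted p = 0.000325), or −2.20 without library D and −1.14 without library A. It was not called at 50%, with a change of −0.59. At 50% that change was −1.23 without library D (limma adjusted p = 0.00025) and −0.16 without library A (limma adjusted p = 0.68). AGAP005998 held 136, 152 and 87.1 CPM at 30%, 177, 168 and 197 CPM at 40%, and 299, 358 and 284 CPM at 50%, so its 40% libraries were already all above those at 30%. It was called lower at 40%, but not without library A (−0.47, limma adjusted p = 0.167). Its change at 50% was −0.12, and it was −0.67 without library D (limma adjusted p = 0.0247) and 0.32 without library A (limma adjusted p = 0.338), so its direction at 50% depends on the 0% libraries. AGAP005997, at 599, 551 and 291 CPM at 0% and 157, 176 and 139.9 CPM at 30%, was still lower at 50%, with 169, 180.0 and 181 CPM and a change of −1.37.

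**Figure D4:**
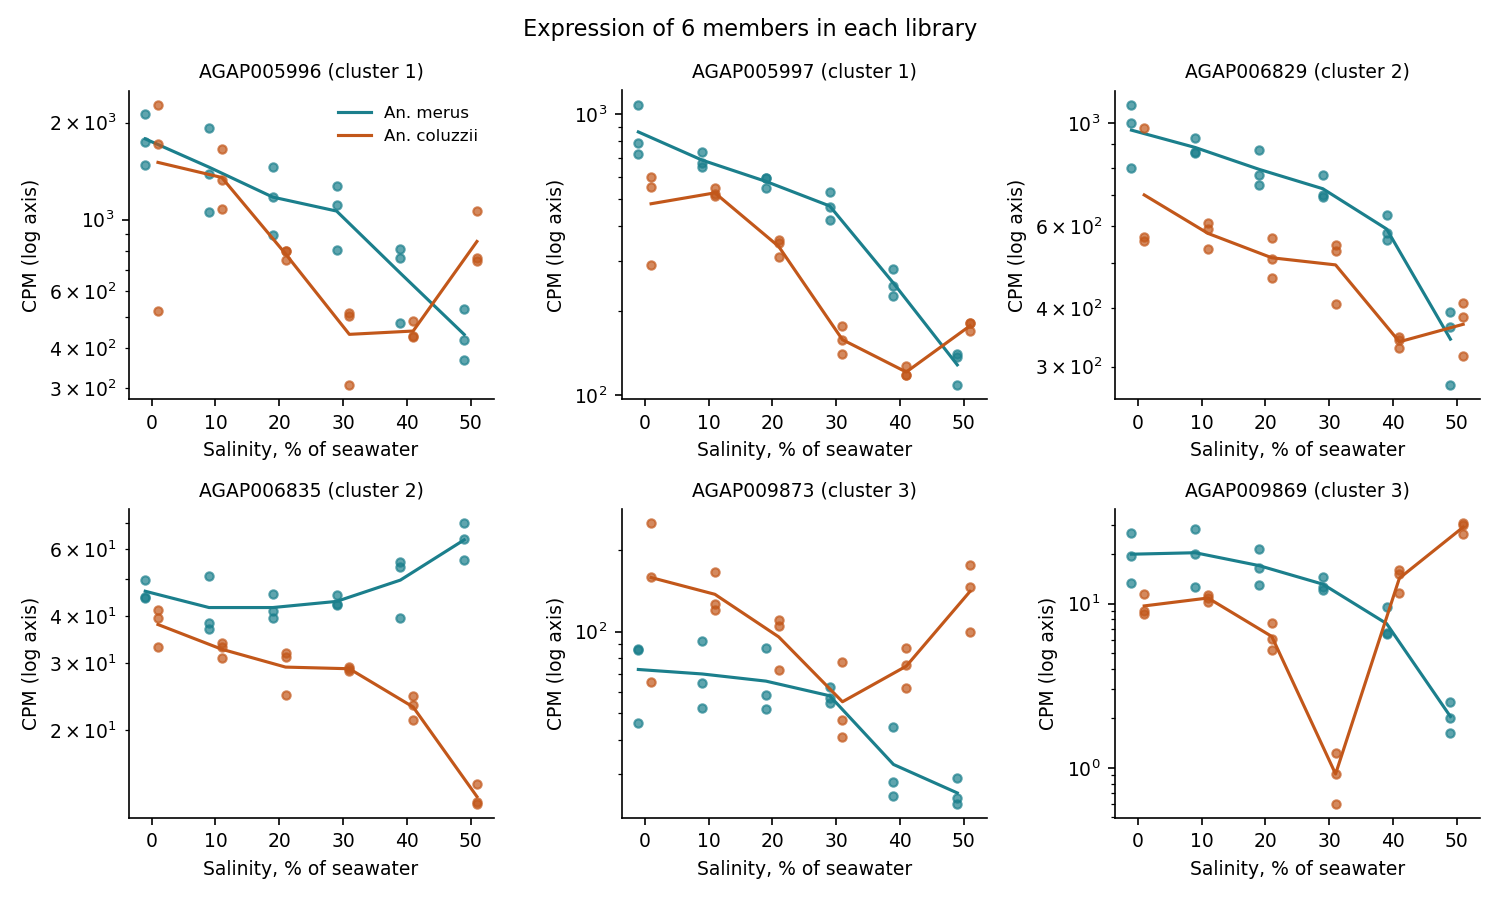
CPM (log axis) of 6 members against salinity in % of seawater. Points are single libraries and lines join the means of 3 libraries. AGAP009869 in An. coluzzii drops to between 0.604 and 1.23 CPM at 30% and stands between 26.3 and 30.9 CPM at 50%, while in An. merus it is lowest at 50%.

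AGAP009869 in cluster 3 made the widest swing in An. coluzzii. It was 11.4, 9.04 and 8.59 CPM at 0%, 5.19, 7.62 and 6.09 CPM at 20%, and 0.604, 0.916 and 1.23 CPM at 30%. At 40% it was 11.7, 15.1 and 16.1 CPM, and at 50% it was 30.3, 30.9 and 26.3 CPM. No 2 of the groups at 0, 20, 30, 40 and 50% overlapped. The change against 0% was −2.86 at 30% (SE 0.24, limma adjusted p = 2.71e-10) and 1.55 at 50% (limma adjusted p = 2.29e-06), and the step from 30 to 40% was 3.39.

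Steps between neighbouring salinities were tested for each member. From 20 to 30% 9 members fell and 1 rose, against 22.1% of all genes called (12.5% lower, 9.55% higher), and from 30 to 40% 10 fell and 3 rose, against 40.3% (21.4% and 18.9%). Between 40 and 50% the direction turned: 12 members rose and 3 fell, against 43.3% of all genes called (21.6% higher, 21.8% lower). Clusters 1, 2 and 3 held 6, 2 and 4 of the rises. Of the 25 members lower at 30 or 40%, 11 rose in this step, and 18 were still lower at 50% than at 0%. The matching shares of all genes lower at those salinities were not counted. The 40% libraries entered both the choice of the 25 and the step, which favours a rise. Of the 12 that rose, 5 were lower than at 0%, 5 were not called against 0%, and AGAP006010 and AGAP009869 were higher. Leaving out 1 library gave 6 rises without library B of 40%, 7 without library C of 40% or library A of 50%, and 8 to 10 without each of the others. The rises of AGAP006010, AGAP009869, AGAP009875 and AGAP009880 were called under every alternative run. The steps of AGAP005996, 0.90 (limma adjusted p = 0.0303), and AGAP005998, 0.79 (limma adjusted p = 0.0374), lost their call in 5 and 9 alternatives. In contrast AGAP006835 fell further, from 21.2, 23.3 and 24.5 CPM at 40% to 12.9, 14.4 and 12.8 CPM at 50%, a step of −0.76 (limma adjusted p = 1.61e-05). AGAP006832, at 3.23, 2.57 and 3.28 CPM at 40%, fell to 0.913, 0.317 and 1.3 CPM.

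Low members of An. coluzzii need their reads beside them. AGAP010111 in cluster 4 was 3.66, 5.09 and 7.21 CPM at 0%, 1.21, 1.08 and 0.936 CPM at 40% and 0.456, 0.444 and 0.434 CPM at 50%, with groups that did not overlap. Its change at 50% was −2.58, the largest fall of any member at that salinity in An. coluzzii, and −2.35 without library D. AGAP009874 in cluster 3 had no read in the 0 and 10% libraries of either species. In An. coluzzii it had 0.539, 3.24 and 2.43 CPM at 40% and 0.978, 1.71 and 1.16 CPM at 50%, all above the floor of 3 reads. AGAP009868, AGAP006012 and AGAP010110 were called lower at 50%, but without library D of 0% their changes were −0.27, −0.43 and −0.46 and none was called. AGAP010122 was lower by 1.02 on the log2 scale at 50% and was still called without library D. AGAP006010 was higher by 1.31 at 50%, at 15.4, 21.4 and 16.8 CPM against 18.9, 6.50 and 2.40 CPM at 0%, groups that overlapped, and without library D its change was 0.64 (limma adjusted p = 0.0977).

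At 0%, in fresh water, 16 members were higher and 5 lower in An. merus, against 22% and 21.5% of all genes (43.5% called in all). In cluster 1 9 of 16 were higher in An. merus and 2 lower, in cluster 2 2 of 5 were higher and 0 lower, in cluster 3 2 of 10 were higher and 2 lower, and in cluster 4 3 of 6 were higher and 1 lower. Of these, 4 of the higher and 2 of the lower members reach 1 CPM in 1 species only, and among the 29 members that reach it in both, 12 were higher and 3 lower. Without library D 15 were higher and 5 lower, but 5 calls were lost and 4 gained. Cluster 1 then had 7 higher and 0 lower, cluster 2 had 2 and 0, cluster 3 had 3 and 4, and cluster 4 had 3 and 1. Without library A 19 were higher and 4 lower. AGAP009868 was not called with library D and was higher in An. merus by 2.60 without it (limma adjusted p = 3.24e-07). AGAP006011 had the largest difference, 4.66 (SE 0.24, limma adjusted p = 8.05e-16). AGAP006000, at 16.1, 10.2 and 11.8 CPM in An. merus and 1.83, 1.98 and 3.07 CPM in An. coluzzii, differed by 2.24. AGAP010118 differed by 2.19, with 9.28, 5.67 and 5.98 CPM against 1.09, 1.32 and 0.921 CPM. In the other direction AGAP009873 had a difference of −0.98 (limma adjusted p = 0.021), with 86.1, 85.8 and 45.9 CPM against 252, 159 and 65.1 CPM, groups that overlapped. Without library A of An. coluzzii it was −0.54 (limma adjusted p = 0.2). The call was also lost without library B of An. coluzzii or library C of An. merus. Of the other lower members, AGAP010111, without a read in An. merus, and AGAP009879 were called in all 14 alternatives. Without library D their differences were −3.27 and −1.04. AGAP006005 and AGAP006012 lost their calls in 6 and 2 of 14.

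The response at 50% was compared between the species as the An. merus change minus the An. coluzzii change. It was negative in 18 members and positive in 4, against 29.3% and 25.6% of all genes, or 54.9% called in all. Cluster 1 held 11 of the negative differences, cluster 2 held 2, cluster 3 held 4 and cluster 4 held 1, and the positive ones were 2 in cluster 2 and 2 in cluster 4. At 10 and 20% limma called 0 members, against 0.0642% (0.0183% higher, 0.0459% lower) and 0.55% (0.183% higher, 0.367% lower) of all genes, with 3 and 4 members at an unadjusted p under 0.05 and 0 called by edgeR or DESeq2. At 30% the difference ran the other way: 8 members were positive and 2 negative, against 18.9% of all genes called (9.39% and 9.54%), so the An. coluzzii change was the lower one in those 8. At 40% 9 were positive and 4 negative, against 44.2% (22.9% and 21.3%), and with library totals the split was 13 and 3. An F test over all 5 differences called 29 of 37 members, against 71.9% of all genes. Without library D the counts were 12 positive and 1 negative at 30%, 13 and 5 at 40%, and 3 and 14 at 50%. Cluster 1 then held 9 of the negative differences at 50%, cluster 2 held 1 and cluster 3 held 4. The positive ones were 2 in cluster 2 and 1 in cluster 4. At 50% without library A the counts over all clusters were 5 and 20. Among the 29 members that reach 1 CPM in both species, 2 differences were positive and 15 negative at 50%.

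**Figure D5:**
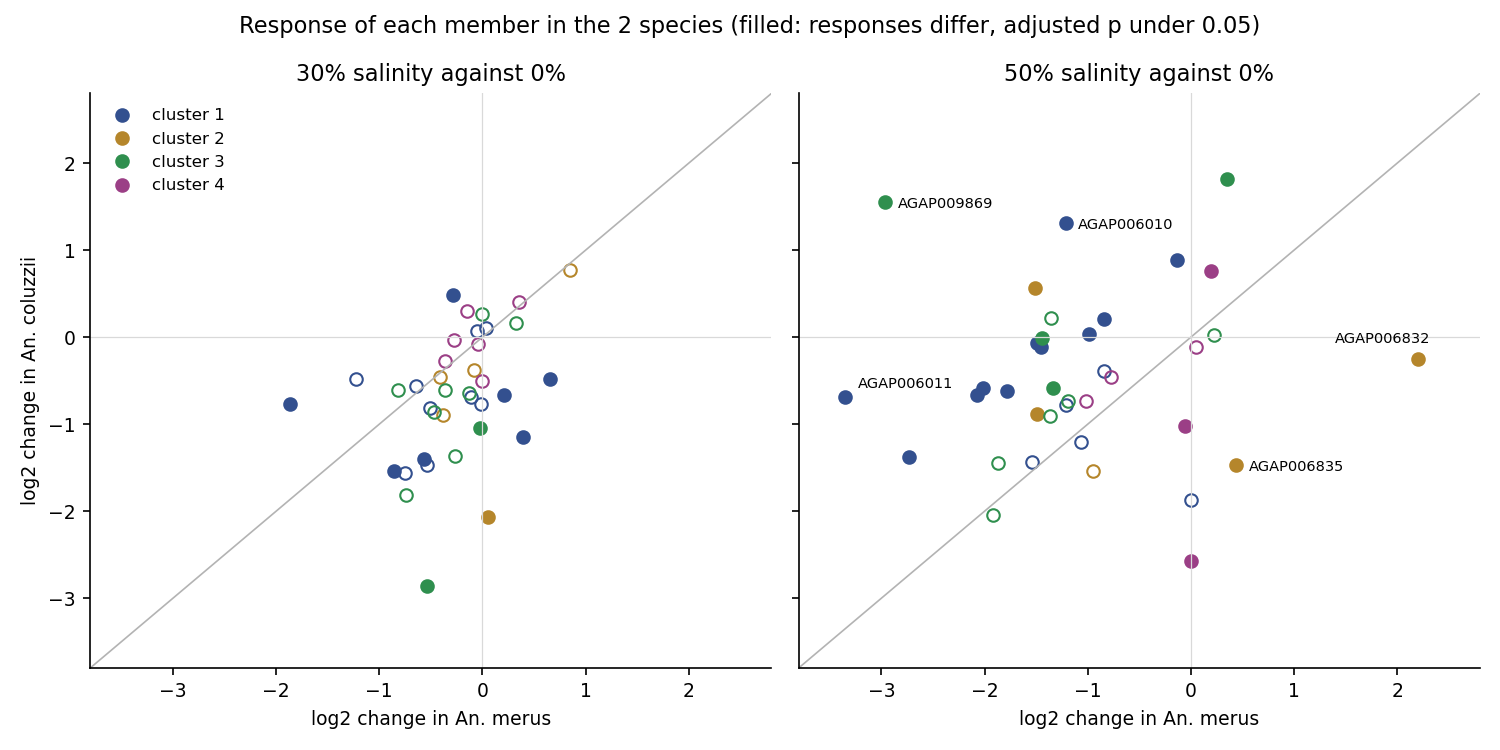
log2 change against 0% of each member in An. merus (horizontal) and An. coluzzii (vertical), at 30% (left) and 50% (right), coloured by cluster, with the line of equal change. Filled points have a limma adjusted p under 0.05 for the difference between species. At 50% most filled points lie above the line, where An. merus is lower, and AGAP006835 and AGAP006832 lie below it.

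AGAP009869, AGAP006010 and AGAP006835 were called in opposite directions in the species at 50%. AGAP009869 had the largest difference in response, −4.51 (SE 0.34, limma adjusted p = 2.39e-11), from a fall of 2.96 in An. merus and a rise of 1.55 in An. coluzzii. AGAP006010 differed by −2.52 and, without library D, by −1.86. AGAP006835 differed by 1.91 (SE 0.18, limma adjusted p = 8.11e-10), from its own rise in An. merus described above and a fall in An. coluzzii. That fall was from 39.3, 33.1 and 41.4 CPM to 12.9, 14.4 and 12.8 CPM. AGAP006011 differed by −2.67, although its An. coluzzii values were low throughout. The differences of AGAP005996, AGAP005998 and AGAP009873, at −1.43, −1.33 and −1.44, became −0.79, −0.78 and −0.90 without library D and were no longer called.

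Of the 27 members lower in An. merus at 50%, 19 (70.4%) were lower in An. coluzzii at 30%, 20 (74.1%) at 40% and 15 (55.6%) at 50%. Of all 4112 genes lower in An. merus at 50%, 61.6, 67.7 and 53.4% were lower in An. coluzzii at these salinities, close to the shares of the members. As shares of the members lower in An. coluzzii, the overlaps were 90.5, 87.0 and 78.9%, against 86, 72.9 and 55.4% over all genes. The members start from a higher base: 27 of 37 were lower in An. merus at 50%, against 37.7% of all genes. These overlaps therefore do not show a fall shared more strongly than in other genes. The salinity of the lowest group mean is given as a description. In An. merus it was 50% in 26 of 37 members, and in An. coluzzii it was 30% in 11, 40% in 11 and 50% in 9. This was not counted over all genes. In An. merus AGAP010111 had no read, so no lowest group, and AGAP006012 had 6 reads in all 18 libraries. At 50% AGAP006000 rose in An. coluzzii by 0.89, to 4.83, 3.93 and 5.06 CPM from the 0% values given above. In An. merus its change was −0.13, and the difference between the responses was −1.02 (limma adjusted p = 0.00105). AGAP009878, AGAP009880 and AGAP010118 had differences of −0.46, −0.46 and −0.32 at 50% that were not called, which does not show that the species respond alike.

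The way members varied together between replicate pools is given as a description without a p. Among the 16 members with a mean of at least 5 CPM, deviations from the group means in An. merus had a median Pearson correlation of 0.53 over 41 pairs within a cluster and 0.26 over 79 pairs between clusters (18 libraries, which share depth and scaling within a library). In An. coluzzii the medians were 0.67 and 0.59, but without the 3 libraries at 0% they were 0.16 and 0.31. The closest pair was AGAP005996 and AGAP005998, at 0.96 in An. merus and 0.97 in An. coluzzii, or 0.90 in An. coluzzii without 0%. AGAP006829 and AGAP006830 stood at 0.83 in both species, or 0.54 in An. coluzzii without 0%. AGAP006000 ran against the others of cluster 1 in An. coluzzii: all 7 of its pairs there were negative, from −0.84 to −0.21, while in An. merus all 7 were positive, from 0.29 to 0.83. Its pair with AGAP005996 stood at −0.84 in An. coluzzii, or −0.74 without 0%, and at 0.72 in An. merus. Reads shared between similar copies can bear on such pairs, and their part was not tested.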

How the data were processed

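Expression was measured by RNA-seq in 36 libraries of pooled larvae. The submitters' processing notes name edgeR, HTSeq, TopHat2, Bowtie2 and Trimmomatic. The sources used here do not give versions, genome build, annotation or filter threshold. The deposited values are a normalized signal, CPM with TMM scaling by the authors after a filter, per the name of the deposited table. In all libraries 100% of values were whole multiples of 1 read within 0.001, and these reads served edgeR 4.0.16 and DESeq2 1.42.0 as alternatives. For replicate C of An. coluzzii at 50% the column carries the name of 1 of 5 lane parts. All 36 replicate pairs differed beyond counting noise (chi-square per degree of freedom at least 6.85).

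Values were tested as log2(CPM + 0.5) in limma 3.58.1 (R 4.3.3), 1 model of 12 group means with a mean trend, two-sided, Benjamini-Hochberg over 10905 genes per comparison, and the method was tested on simulated data. Comparisons were each salinity against 0%, neighbouring salinities, the species at 0% and the difference of responses. Comparisons within a species share their 0% libraries. Alternatives were other pseudocounts, scalings, filters, variance models and tools, a replicate block, species fitted alone and each library left out. Sums and cluster counts without library A or D, counts without members seen in 1 species only, and correlations without the 0% libraries were added after seeing the data. The members, lists and tests were chosen with earlier results of these data known. A rule on size, level and non-overlap per cluster and comparison named 17 members. AGAP006002, AGAP006003, AGAP006004, AGAP006005, AGAP006006 and AGAP006012 were named after their values were seen. So were AGAP006832, AGAP009868, AGAP009874, AGAP009879 and the cluster 4 members other than AGAP010118. A list of other cuticle genes was left out, since identifiers could not be paired with names.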

Additional observations from a re-analysis of the deposited data

Results flagged for a closer look

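In 22 members the change at 50% against 0% differed between the species by the limma test of the difference (adjusted p under 0.05, An. merus minus An. coluzzii on the log2 scale). In cluster 1 the differences were −1.43 for AGAP005996, −1.36 for AGAP005997, −1.33 for AGAP005998, −1.02 for AGAP006000, −1.42 for AGAP006002 and −1.05 for AGAP006003. They were −1.03 for AGAP006006, −1.41 for AGAP006007, −1.16 for AGAP006009, −2.52 for AGAP006010 and −2.67 for AGAP006011. Cluster 2 had −0.61 for AGAP006829 and −2.08 for AGAP006830, against 2.46 for AGAP006832 and 1.91 for AGAP006835. Cluster 3 had −4.51 for AGAP009869, −1.44 for AGAP009873, −1.46 for AGAP009874 and −0.76 for AGAP009875. Cluster 4 had 2.58 for AGAP010111, −0.56 for AGAP010115 and 0.97 for AGAP010122.

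Of the 22, AGAP006002, AGAP006003, AGAP009874, AGAP010111 and AGAP010122 reach 1 CPM in 1 species only. Of the 22, 14 were called under every alternative run. The values of AGAP009874 and AGAP010111 depend on the prior count, since AGAP009874 was at 0 in all 0% libraries and AGAP010111 in all An. merus libraries, and neither was called by edgeR or DESeq2. AGAP010115 lost its call in 10 of 20 alternatives, AGAP006829 in 7 of 21 and AGAP010122 in 3 of 20. AGAP005996, AGAP005998 and AGAP009873 lost it only without An. coluzzii library D at 0%.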

How the results depend on the processing

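Of 93 values of members named by the rule, 9 changed sign under some alternative, and none of the 9 was called before or after. Among them are AGAP005998 and AGAP009873 in An. coluzzii at 50%, at 0.32 and 0.43 without library A of 0%. AGAP009868, not named by the rule, changed sign in An. coluzzii at 40% without library D of 0%. Counts of members called moved by more than 1.5 times as follows. A pseudocount of 2 gave 1 for An. merus at 10%, 5 at 20%, 3 for its step from 30 to 40% and 1 for the difference of responses at 20%. Library totals gave 1 for An. merus at 20%, and moved the median of all genes by −0.13 in An. merus at 50% and by −0.16, −0.28 and −0.28 in An. coluzzii at 30, 40 and 50%. DESeq2 gave 1 for An. coluzzii at 10%, 10 at 20% and 5 for the An. merus step from 30 to 40%, and edgeR gave 9 for An. coluzzii at 20%. A filter at a mean of 5 CPM leaves 16 members. With it, An. merus at 50% had 15 calls, An. coluzzii had 15, 13 and 12 at 30, 40 and 50%, and the comparison of species at 0% had 9. The difference of responses at 30, 40 and 50% had 6, 6 and 14. The An. merus step from 40 to 50% had 11, and the An. coluzzii steps from 20 to 30 and 30 to 40% had 5 and 6. The mean of log2 values in place of summed CPM gave changes at 50% of −1.42 for cluster 1 and −0.26 for cluster 2 in An. merus, and −0.69 for cluster 4 in An. coluzzii, all nearer to 0 than from the sums. The cause was not tested.

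The replicate letters are not given as pairs: pools with the same letter had a median correlation of deviations of 0.11 in An. merus (−0.58 to 0.66, 45 pairs) and 0.03 in An. coluzzii (−0.32 to 0.61, 36 pairs). The replicate block gave 5 members for An. merus at 20%, 7 for An. coluzzii at 20% and 3 for the An. merus step from 30 to 40%, and left the other counts within 1.5 times. Among rises of the An. coluzzii step from 40 to 50% it gave 7 in place of 12.

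Leaving out 1 library gave 0 to 1 members in An. merus at 10%, 1 to 4 at 20% and 2 to 9 at 30%. It gave 1 to 13 in An. coluzzii at 20% and 8 to 14 in its step from 30 to 40%. At 20% in An. merus 1 member was called without library A or B of 20%, and at 30% 2 without library A of 30%, 3 without library B of 30% or library A of 0%, and 9 without library C of 0%. The 8 of the An. coluzzii step came without library C of 40%. At 50% An. merus had 27 to 29 and An. coluzzii 23 to 25. Values near the floor of 3 reads are limited by depth.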
